A study of Mus musculus with 6 samples.

Results

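Chromatin accessibility at the genes of the actin side-binding proteins transgelin, calponin, tropomyosin and caldesmon was examined in mouse NIH/3T3 fibroblasts, an established embryonic cell line. The regions were those whose gene name in the deposited accessibility table was Tagln, Tagln2, Cnn1, Cnn2, Cnn3, Tpm1, Tpm2, Tpm3, Tpm4 or Cald1, at any distance from the transcription start site (TSS). This gave 17 regions for all 10 genes, out of 63430 regions in the table, of which 15117 carried a gene name. Every library came from cells with CRISPR-Cas13d, an RNA-cutting nuclease, knocked into the genome. The Actg1 guide cells were transfected with a guide RNA specific for Actg1, the gene of cytoplasmic gamma-actin, and the control cells with a guide RNA specific for GFP, with 3 libraries in each group. The table holds accessibility and not RNA, so the level of Actg1 mRNA, the check on the guide, was not analysed here. Each library was made by ATAC-seq, in which a transposase inserts adapters into open DNA, from 25000 cells. The series asks what mRNA degradation contributes to transcriptional adaptation, in which cells that degrade an mRNA alter the transcription of genes related to it. The 3 libraries of a group are called biological replicates, without saying whether they came from separate cultures, so a p-value here reflects only how far these samples differ, a spread that may be technical.

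The proteins of these genes lie along actin filaments. Tropomyosins are coiled-coil dimers that polymerise head to tail along the filament and set which other proteins can bind it. Calponins, transgelins and caldesmon bind the filament side, and caldesmon also binds tropomyosin, myosin and calmodulin. Tagln and Cnn1 are standard markers of differentiated smooth muscle, and several of these genes are known targets of serum response factor (SRF), whose MRTF cofactors are held inactive by actin monomers. SRF binds a DNA element called the CArG box. Mammalian tropomyosin genes use alternative start sites, which give long and short isoforms.

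Estimated reads in regions lay between 5675571 and 9525330 per library with the Actg1 guide and between 6785617 and 9470447 with the GFP guide. The values are normalized region signals in whole numbers, scaled by a formula the labels leave unstated. The difference between GFP guide replicates 1 and 2 did not exceed sampling noise, so their mean was used and counted as 1 sample, and each SD of that group (n = 2) is between this mean and replicate 3. Pearson correlations of log2 signal over the tested regions were 0.972 to 0.981 for libraries of the same group and 0.900 to 0.917 for libraries of different groups. All 12 fibroblast marker genes had a region, while 0 of 5 skeletal muscle and 0 of 4 endothelial marker genes had a region in the table used here. Of 4 markers each, smooth muscle had 3 with regions (Acta2, Lmod1 and Myocd), epithelium 1 (Krt8) and leukocytes 2 (Ptprc and Cd68). The summed signal of the 26 fibroblast marker regions was 5148 to 5235 in Actg1 guide libraries and 5386 to 5561 in GFP guide libraries. For smooth muscle markers the sums were 246 to 282 with the Actg1 guide and 272 to 296 with the GFP guide. Those of Krt8 were 136 to 182 with the Actg1 guide and 196 to 221 with the GFP guide, and those of the leukocyte markers 223 to 252 with the Actg1 guide and 183 to 200 with the GFP guide. Within these sums, log2 fold changes (Actg1 guide over GFP guide) were -1.28 and -0.03 at the Krt8 regions, 1.04 at Cd68 and -0.02 at Ptprc. Over the 26 fibroblast marker regions they ran from -1.30 to 0.77, with a median of -0.04. By the test given below, 5 of these 26 were higher and 8 lower, together 50%, against 41.3% of all tested regions. The part of these shifts in the results below was not tested. In such bulk samples, a change in the share of cells that have a region open and a change in every cell cannot be told apart.

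With the Actg1 guide, accessibility fell at regions of Tagln, Tagln2, Cnn2 and Tpm4 and rose at 1 region inside Tpm1, and the other 10 regions did not pass the test. A region was called when its limma p-value, adjusted by the Benjamini-Hochberg method over all 61327 regions tested, was under 0.05. All 17 regions passed the filter on low signal. Of them, 1 was higher and 6 were lower with the Actg1 guide, together 41.2%, where 41.3% of all tested regions were called (20.6% higher and 20.7% lower). The share called was thus close to the background. The median log2 fold change of the 17 regions was -0.01, as it was over all regions (-0.01). Among the 8 regions within 1 kb of a TSS, taken as promoter regions, 0 were higher and 3 were lower, where 14.0% of all promoter regions were higher and 18.7% lower (32.7% in all). The limma fit that gave 0 higher had 1 such region (Cnn1) at an unadjusted p of 0.0475 and another (Cald1) at 0.0244, and cyclic loess scaling, the fit of 6 separate libraries and limma voom on estimated reads each called 1 higher, at Cald1. Of the 9 regions farther out, 1 was higher and 3 lower, where 22.9% of all named regions beyond 1 kb were higher and 15.9% lower (38.8% in all). The libraries of the groups did not overlap in 8 of the 17 regions, against 50.8% of all regions. These were 4 of the 8 promoter regions (44.0% of all promoter regions) and 4 of the 9 others (48.1% of all named regions beyond 1 kb).

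**Figure D1:**
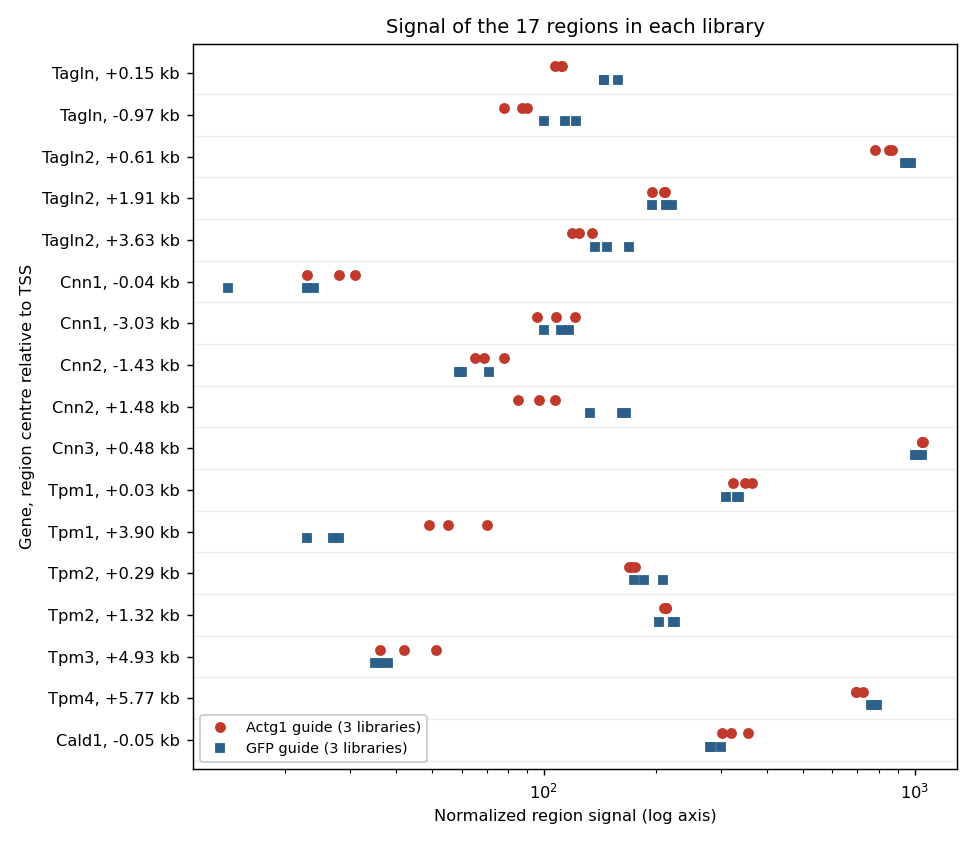
Normalized signal (log axis) of the 17 regions in each of the 3 Actg1 guide libraries (circles) and 3 GFP guide libraries (squares), with the position of the region centre relative to the TSS. Actg1 guide libraries lie to the left at both Tagln regions and at the Cnn2 region inside the gene, and to the right at the Tpm1 region 3.90 kb from the TSS.

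Leaving out GFP guide replicate 3 left the mean of replicates 1 and 2 as the lone GFP guide sample, assumed to vary like the others, and then 3 of the 17 regions were called (1 higher and 2 lower), and over all regions 12793 in place of 25323. That setting removes a sample as well as a library, and the log2 fold changes moved little at the Tagln2 promoter (-0.19 against -0.21) and Tpm4 (-0.13 against -0.15) and more at the Tagln2 region 3635 bp from the TSS (-0.18 against -0.30). The same 3 regions were called under all 13 alternatives tried: the Tagln region nearest the TSS, the Cnn2 region inside the gene and the internal Tpm1 region. Of the 10 regions not called, 9 were called under none of the alternatives, and the exception was the Cald1 promoter. Set beside regions of like kind and like signal, all 17 log2 fold changes lay between the 5th and the 95th percentile, and 9 lay between the 25th and the 75th. Kind went by the TSS of the table, so the Tpm4 region was set beside regions beyond 1 kb. Signal per kilobase of region, the scale on which regions of unequal length can be compared, ran from 189 at the Cnn1 promoter to 576 at the Cnn3 promoter.

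**Figure D2:**
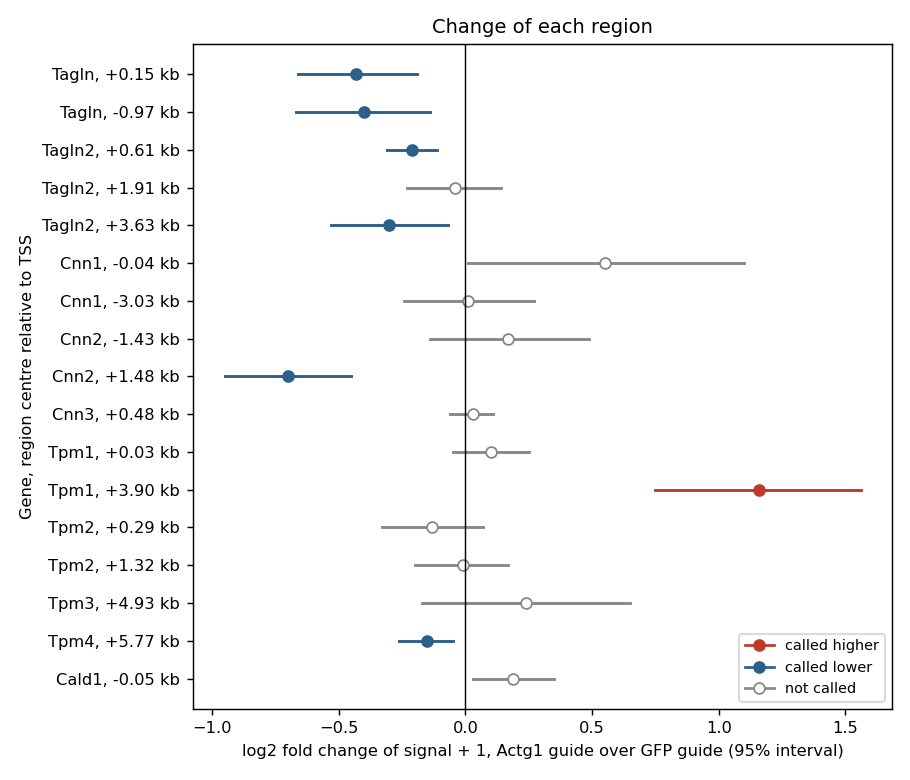
Log2 fold change of signal + 1 (Actg1 guide over GFP guide) with its 95% interval from limma for each of the 17 regions, named by gene and by the distance of the region centre from the TSS. Filled points were called, with 6 lower and 1 higher (Tpm1, 3.90 kb). The Tagln and Tagln2 promoters lie to the left of 0, and the interval of Cnn3 spans -0.06 to 0.11.

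The largest fall among the promoter regions was at Tagln. Tagln encodes transgelin (SM22), a calponin-related protein that gathers actin filaments into bundles, and lies on the minus strand of chromosome 9 (ENSMUSG00000032085). Its region over the TSS (45935586 to 45936221, centre 154 bp from the TSS) had signals of 107, 112 and 111 in the Actg1 guide libraries, against 158, 145 and 145 in the GFP guide libraries. All Actg1 guide values lay below all GFP guide values. The means were 110 ± 2.65 (SD, n = 3) and 148 ± 4.60 (SD, n = 2), a log2 fold change of -0.43 (limma SE 0.116, adjusted p = 0.0026). The second Tagln region (45936841 to 45937212) lay 969 bp upstream of the TSS, outside the gene. It had 90, 78 and 87 with the Actg1 guide and 122, 100 and 114 with the GFP guide, again without overlap, with a log2 fold change of -0.40 (limma SE 0.132, adjusted p = 0.0124). Both Tagln regions thus fell, and by similar amounts. The call of the upstream region ended without GFP guide replicate 1 (log2 fold change -0.33, limma adjusted p = 0.0606) or replicate 3 (-0.38, limma adjusted p = 0.128). By the rule of nearest pattern, the promoters most like that of Tagln over the 6 libraries were those of Tmem159, Olfml3 and Btbd6, out of 9004 promoter regions with a mean signal of at least 50. Their centred log2 signals differed from those of Tagln by a root mean square of 0.0370, 0.0441 and 0.0447.

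Tagln2, on the plus strand of chromosome 1 (ENSMUSG00000026547), encodes the transgelin of non-muscle cells. Its broad promoter region (172499751 to 172501568, 1818 bp long) had 855, 781 and 868 with the Actg1 guide, against 961, 942 and 980 with the GFP guide. The groups did not overlap, and the log2 fold change was -0.21 (limma SE 0.0503, adjusted p = 0.000696). Without GFP guide replicate 3 the call ended, at -0.19 (limma adjusted p = 0.0804). Downstream in the gene, the region 1915 bp from the TSS had 211, 212 and 196 with the Actg1 guide and 196, 213 and 221 with the GFP guide. These overlapped, and the log2 fold change of -0.04 had a 95% interval of -0.23 to 0.14 (limma adjusted p = 0.738). The region 3635 bp from the TSS had 135, 119 and 124 with the Actg1 guide against 137, 148 and 170 with the GFP guide, a log2 fold change of -0.30 (limma SE 0.114, adjusted p = 0.0288). The call was lost under 5 of the 13 alternatives: without GFP guide replicate 2 or 3 (-0.28 and -0.18, limma adjusted p = 0.0597 and 0.405), without Actg1 guide replicate 2 or 3 (-0.26 and -0.29, limma adjusted p = 0.0960 and 0.0711), and in limma voom on estimated reads (-0.22, adjusted p = 0.0738). The change of the promoter region differed from that of the region at 1915 bp by -0.17 on the log2 scale (exact two-sided permutation p = 0.2, where 0.1 is the smallest possible with 3 against 2 samples). The change at 1915 bp differed from that at 3635 bp by 0.26 (exact permutation p = 0.1). Here and below, this test was run only on pairs of regions of 1 gene that changed in opposite directions or of which only 1 was called. The pairs were thus picked from these same data for differing, and p could not fall below 0.1, so no conclusion is drawn from the test.

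The Tagln2 start window lay wholly inside its promoter region, so its sequence is shown with the motif matches that a search found. RefSeq promoter windows, which run from 250 bases before the start to 50 from it on, were available for 9 of the 10 genes, with 11 windows in all (GRCm38.p6, the build also called mm10). The gene without a window was Tagln, so its promoter was not searched for motifs. The motifs were the CArG box, TGANTCA (bound by AP-1), GGAATG (bound by TEAD factors) and GGGCGG (bound by SP and KLF factors), each searched on both strands. They occurred in 1.63%, 7.81%, 14.7% and 35.7% of all 32851 windows in the RefSeq table. The Tagln2 window (chr1:172499996-172500295, plus strand) is given 5′ to 3′ with matches in capitals, 2 to GGAATG (as CATTCC) and 3 to GGGCGG:
Tagln2: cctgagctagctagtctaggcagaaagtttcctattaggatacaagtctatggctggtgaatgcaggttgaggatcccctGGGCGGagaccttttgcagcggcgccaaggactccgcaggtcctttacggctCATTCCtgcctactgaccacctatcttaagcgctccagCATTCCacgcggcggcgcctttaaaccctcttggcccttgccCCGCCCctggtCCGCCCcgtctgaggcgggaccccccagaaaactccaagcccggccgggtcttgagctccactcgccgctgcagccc

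Of the 5 calponin regions, 1 was called, inside Cnn2. Cnn1 encodes the calponin of smooth muscle and lies on the plus strand of chromosome 9 (ENSMUSG00000001349). Its small promoter region (22099111 to 22099236) had low signal, with 31, 28 and 23 in the Actg1 guide libraries and 24, 23 and 14 in the GFP guide libraries. The groups overlapped at 23, and the log2 fold change of 0.55 had a 95% interval of 0.01 to 1.10 and did not pass (limma adjusted p = 0.0989). A region 3029 bp upstream (22095961 to 22096412) had 108, 96 and 121 with the Actg1 guide and 117, 111 and 100 with the GFP guide. Its log2 fold change was 0.01 (95% interval -0.24 to 0.27, limma adjusted p = 0.942) and changed sign in several alternatives.

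Cnn2, on the plus strand of chromosome 10 (ENSMUSG00000004665), encodes a calponin found in many cell types, including fibroblasts, and had the largest fall of the set. The region inside the gene, 1482 bp from the TSS (79989940 to 79990191), had 107, 85 and 97 with the Actg1 guide, against 133, 162 and 167 with the GFP guide. All Actg1 guide libraries were lower. The means were 96.3 ± 11 (SD, n = 3) and 157 ± 13.8 (SD, n = 2), or 0.614-fold (log2 fold change -0.70, limma SE 0.124, adjusted p = 1.14e-05). The region 1425 bp upstream of the TSS (79987050 to 79987267) had 78, 69 and 65 with the Actg1 guide and 59, 71 and 60 with the GFP guide, which overlapped. Its log2 fold change was 0.17 (95% interval -0.14 to 0.49, limma adjusted p = 0.401), and it differed from that of the region inside the gene by 0.88 (exact permutation p = 0.1, the smallest possible). Upstream of Cnn2 the neighbouring gene Tmem259 had 3 regions within 10 kb, and all 3 rose, by 0.24, 0.80 and 0.54 on the log2 scale (limma adjusted p = 0.000332, 1.76e-05 and 3.68e-05), where 20.6% of all tested regions were higher. The RefSeq start window of Cnn2 overlapped 0 regions used here. Of the 11 windows searched, none of them of Tagln, it alone had a CArG box, 56 bases before the start. It is therefore shown (chr10:79988350-79988649, plus strand, capitals for the CArG box and 3 matches to GGGCGG):
Cnn2: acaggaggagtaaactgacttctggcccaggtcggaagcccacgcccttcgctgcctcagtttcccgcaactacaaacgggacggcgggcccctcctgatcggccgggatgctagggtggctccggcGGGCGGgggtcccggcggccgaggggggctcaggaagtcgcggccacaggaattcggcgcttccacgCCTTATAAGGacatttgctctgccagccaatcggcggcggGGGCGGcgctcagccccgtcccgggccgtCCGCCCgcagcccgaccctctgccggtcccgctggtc

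Cnn3, on the plus strand of chromosome 3 (ENSMUSG00000053931), encodes acidic calponin and had the promoter region with the highest signal of the set (121426079 to 121427878, 1800 bp). Its signals were 1052, 1049 and 1047 with the Actg1 guide and 1022, 1005 and 1049 with the GFP guide. The log2 fold change was 0.03 (95% interval -0.06 to 0.11, limma adjusted p = 0.685). Inside the gene, 7.78 kb from the TSS, a region that the table assigned to no gene (121434047 to 121434501) had 6, 8 and 14 with the Actg1 guide, against 58, 59 and 50 with the GFP guide. That is 0.178-fold (log2 fold change -2.49, limma SE 0.311, adjusted p = 1.68e-08), and without GFP guide replicate 3 it was -2.60 (limma adjusted p = 0.00565). A further region 36.55 kb from the TSS and past the end of the gene had 59, 35 and 42 with the Actg1 guide and 30, 29 and 30 with the GFP guide (log2 fold change 0.56, limma adjusted p = 0.0337). That call ended without GFP guide replicate 3 (0.57, limma adjusted p = 0.207), without Actg1 guide replicate 1 or 3 (0.36 and 0.60, limma adjusted p = 0.235 and 0.0712) and after cyclic loess scaling (0.50, adjusted p = 0.0601).

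Among the tropomyosin genes, Tpm1 and Tpm4 each had 1 called region, in opposite directions, and Tpm2 and Tpm3 had none. Tpm1 encodes alpha-tropomyosin and lies on the minus strand of chromosome 9 (ENSMUSG00000032366). Its promoter region (67048945 to 67049817, 25 bp from the TSS) had 364, 323 and 349 with the Actg1 guide and 337, 332 and 309 with the GFP guide, which overlapped (log2 fold change 0.10, 95% interval -0.05 to 0.25, limma adjusted p = 0.299). A region of 117 bp inside the gene (67045445 to 67045561), 3.90 kb from the TSS, had 55, 70 and 49 with the Actg1 guide, against 27, 28 and 23 with the GFP guide. Every Actg1 guide library was higher. The means of 58.0 ± 10.8 (SD, n = 3) and 25.2 ± 3.18 (SD, n = 2) gave 2.23-fold (log2 fold change 1.16, limma SE 0.202, adjusted p = 9.82e-06). Without GFP guide replicate 3 the log2 fold change was 1.03 (limma adjusted p = 0.0169). The change at the promoter differed from this one by -1.06 (exact permutation p = 0.1, the smallest possible). The next region into the gene (67043568 to 67044163, 5.54 kb from the TSS) carried no gene name and had more signal per kilobase than the promoter region, 565 against 384.5. It had 352, 338 and 349 with the Actg1 guide and 357, 327 and 297 with the GFP guide (log2 fold change 0.12, 95% interval -0.03 to 0.27, limma adjusted p = 0.213). The other 3 unnamed regions inside Tpm1 differed by 0.07, 0.54 and 0.36 on the log2 scale and were not called (limma adjusted p = 0.764, 0.0612 and 0.156).

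Tpm2, on the minus strand of chromosome 4 (ENSMUSG00000028464), encodes beta-tropomyosin. Its promoter region (43523098 to 43523842) had 172, 176 and 170 with the Actg1 guide and 209, 175 and 186 with the GFP guide. Its log2 fold change of -0.13 had a 95% interval of -0.33 to 0.07 (limma adjusted p = 0.300). The region 1324 bp into the gene had 213, 211 and 213 with the Actg1 guide and 223, 226 and 205 with the GFP guide (log2 fold change -0.01, 95% interval -0.20 to 0.17, limma adjusted p = 0.916). At both regions the groups overlapped.

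For Tpm3 and Tpm4 the strong region lay at a start that the table did not use as the TSS. Tpm4, a tropomyosin gene of non-muscle cells on the plus strand of chromosome 8 (ENSMUSG00000031799), had 1 named region (72134868 to 72137021, 2154 bp), 5771 bp from the TSS of the table. It contained the whole window of the RefSeq start of Tpm4, at 72135288. Its signals were 693, 695 and 725 with the Actg1 guide, against 762, 780 and 793 with the GFP guide, without overlap. The fall was small, 0.901-fold (log2 fold change -0.15, limma SE 0.0522, adjusted p = 0.0178). The call ended after cyclic loess scaling (-0.11, adjusted p = 0.0683), without GFP guide replicate 3 (-0.13, limma adjusted p = 0.170) and without Actg1 guide replicate 1 (-0.14, limma adjusted p = 0.0573). Farther along Tpm4, a weak region assigned to an antisense gene without a symbol (72144468 to 72144589) had 24, 35 and 30 with the Actg1 guide and 15, 23 and 10 with the GFP guide (log2 fold change 1.03, limma adjusted p = 0.00315). That call ended without GFP guide replicate 3, at 0.60 (limma adjusted p = 0.202).

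Tpm3, on the plus strand of chromosome 3 (ENSMUSG00000027940), encodes the tropomyosin of slow muscle fibres and shorter non-muscle isoforms, and had 1 named region of 140 bp, 4932 bp inside the gene. It had 42, 51 and 36 with the Actg1 guide and 38, 36 and 35 with the GFP guide, which overlapped (log2 fold change 0.24, 95% interval -0.17 to 0.65, limma adjusted p = 0.372). A strong region without a gene name (90079236 to 90080491), 7.22 kb from the TSS of the table, contained the whole window of the second RefSeq start of Tpm3, at 90079521. It had 640, 615 and 660 with the Actg1 guide and 681, 669 and 649 with the GFP guide. The groups overlapped, with a log2 fold change of -0.05 and a 95% interval of -0.16 to 0.06 (limma adjusted p = 0.475). The first RefSeq window of Tpm3 overlapped 0 regions used here. The 2 windows that lie in strong regions are shown side by side, Tpm4 (chr8:72135038-72135337, plus strand) with 5 matches to GGGCGG in capitals and a GC content of 76%, and the second start of Tpm3 (chr3:90079271-90079570, plus strand) with 1 match and a GC content of 55.7%:
Tpm4: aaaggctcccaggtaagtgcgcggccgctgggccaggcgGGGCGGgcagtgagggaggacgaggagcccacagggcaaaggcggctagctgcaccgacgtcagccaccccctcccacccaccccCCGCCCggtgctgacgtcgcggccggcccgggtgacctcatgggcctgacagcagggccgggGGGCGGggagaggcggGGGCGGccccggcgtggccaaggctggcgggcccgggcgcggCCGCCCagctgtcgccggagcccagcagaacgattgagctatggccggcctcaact
Tpm3: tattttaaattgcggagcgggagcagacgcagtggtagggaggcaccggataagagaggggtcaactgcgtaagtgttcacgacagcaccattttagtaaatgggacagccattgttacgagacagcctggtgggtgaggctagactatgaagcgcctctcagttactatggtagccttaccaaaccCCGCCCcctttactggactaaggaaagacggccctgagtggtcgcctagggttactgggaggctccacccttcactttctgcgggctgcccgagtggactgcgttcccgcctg

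**Figure D3:**
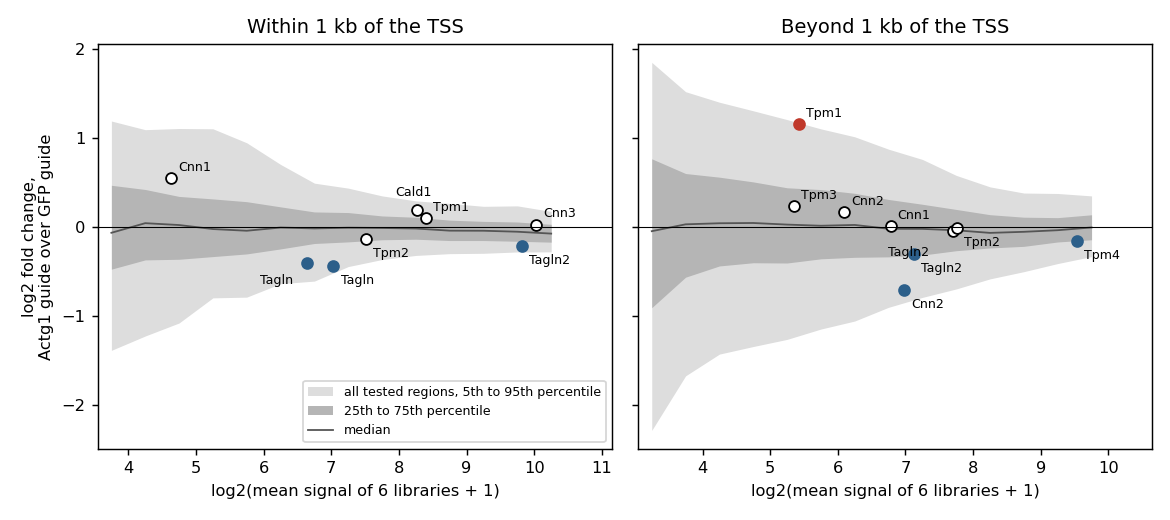
Log2 fold change (Actg1 guide over GFP guide) against the log2 of the mean signal + 1 over 6 libraries for the 17 regions, split by distance from the TSS. Grey bands give the percentiles of all tested regions of the same kind in bins of signal, and filled points were called. All 17 points lie within the 5th to 95th percentile, with the Tagln promoter region at the TSS (-0.43) and the internal Tpm1 region (1.16) near the edge.

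Cald1 encodes caldesmon, which restrains the myosin ATPase on tropomyosin-bound actin, and spans 177 kb of the plus strand of chromosome 6 (ENSMUSG00000029761). Its promoter region (34598159 to 34598748, 46 bp from the TSS) had 355, 319 and 303 with the Actg1 guide, against 300, 283 and 280 with the GFP guide. All Actg1 guide libraries were higher, yet the log2 fold change of 0.19 (SE 0.0794) narrowly missed the threshold (limma adjusted p = 0.0572). It passed under 6 of the 13 alternatives, among them 6 separate libraries (0.18, limma adjusted p = 0.0393), the same with a replicate block (0.18, limma adjusted p = 0.0293) and cyclic loess scaling (0.21, adjusted p = 0.0300). Among those it did not pass were the fits without Actg1 guide replicate 1 (0.12, limma adjusted p = 0.26) and without GFP guide replicate 2 (0.16, limma adjusted p = 0.106). The window of this start (chr6:34598254-34598553, plus strand) lies wholly in the region and is shown with 1 match to GGAATG and 1 to GGGCGG in capitals:
Cald1: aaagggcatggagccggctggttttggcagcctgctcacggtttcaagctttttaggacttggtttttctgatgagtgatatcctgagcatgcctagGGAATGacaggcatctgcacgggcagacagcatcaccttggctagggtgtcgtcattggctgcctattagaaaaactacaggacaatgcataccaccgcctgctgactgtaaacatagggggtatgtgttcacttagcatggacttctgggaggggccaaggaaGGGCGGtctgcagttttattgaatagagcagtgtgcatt

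Inside Cald1 lay 11 further regions without a gene name, of which 10 were tested, and 5 of these rose while 0 fell. The untested one (34770021), too weak for the filter, had 6, 1 and 2 with the Actg1 guide. Its GFP guide values, 9, 13 and 8, were all higher. The share called, 50%, stands beside 43.9% of all tested regions without a gene (22.1% higher and 21.9% lower). The counts at an unadjusted p under 0.05 were 5 higher and 1 lower in limma, and with 6 separate libraries 5 were called higher and 1 lower. The largest rise was 151 kb from the TSS (34749630 to 34749785), with 29, 45 and 37 in the Actg1 guide libraries and 10, 10 and 15 in the GFP guide libraries (log2 fold change 1.50, limma SE 0.268, adjusted p = 1.56e-05). The region at 34713136 to 34713514 had 235, 210 and 211 with the Actg1 guide, against 148, 162 and 175 with the GFP guide (log2 fold change 0.40, limma SE 0.0966, adjusted p = 0.000729). Both groups of values were apart at these 2 regions, and both calls held without GFP guide replicate 3 (1.77 and 0.49, limma adjusted p = 0.00523 and 0.0169). The second of them lay 3.88 kb downstream of the second RefSeq start of Cald1, whose own window overlapped 0 regions used here. The region at 34717262, 7.93 kb from that start, had 117, 122 and 121 with the Actg1 guide and 96, 82 and 88 with the GFP guide (log2 fold change 0.43, limma adjusted p = 0.00414). The other 2 rises, at 34633835 and 34743534, reached 0.56 and 0.27 on the log2 scale (limma adjusted p = 0.00367 and 0.0408). The calls of these last 3 regions ended without GFP guide replicate 3, at 0.43, 0.54 and 0.17 (limma adjusted p = 0.0598, 0.111 and 0.434). The call at 34633835 also ended without Actg1 guide replicate 2 (0.41, limma adjusted p = 0.0503). That at 34743534 also ended without GFP guide replicate 1 (0.23, limma adjusted p = 0.111) and without Actg1 guide replicate 1 or 2 (0.28 and 0.20, limma adjusted p = 0.0997 and 0.189).

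**Figure D4:**
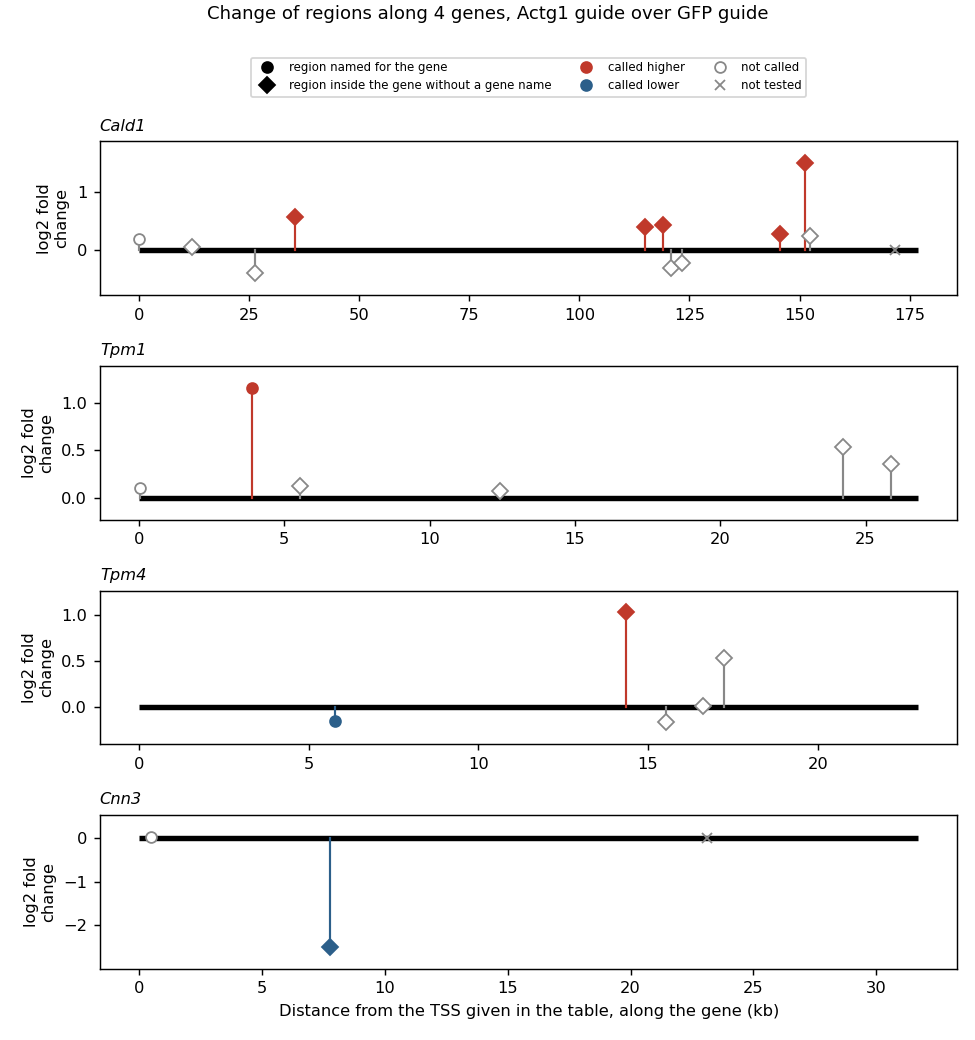
Log2 fold change (Actg1 guide over GFP guide) of the regions along Cald1, Tpm1, Tpm4 and Cnn3, plotted by distance from the TSS of the table in kb, where the black bar is the gene. Circles are regions named for the gene, diamonds regions inside it without a gene name, filled symbols were called and crosses were not tested. Called regions inside Cald1 all point upward, and the single called region inside Cnn3 points downward by 2.49.

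Over all 10 genes, 22 regions lay inside the gene bodies without a gene name, in Cald1 (11), Tpm1 (4), Tpm4 (4), Cnn3 (2) and Tpm3 (1). The table assigned 3 of them, 1 in Cald1 and 2 in Tpm4, to antisense genes without a symbol and the others to no gene. Of the 20 tested, 6 were higher and 1 was lower, together 35.0%, where 41.3% of all tested regions and 43.9% of those without any assigned gene were called. The groups did not overlap in 8 of the 20, against 50.8% of all tested regions and 53.0% of those without any assigned gene. Their median log2 fold change was 0.17, against a median of -0.01 over all tested regions. Without GFP guide replicate 3, 2 were higher and 1 lower. In the 10 kb on either side of the gene bodies lay 18 more regions that carried no member name, of which 17 were tested, with 9 higher and 1 lower, together 58.8%, where 41.3% of all tested regions were called (20.6% higher and 20.7% lower). The lower one lay 8.08 kb upstream of the Tagln TSS (45943989), with 16, 5 and 9 in the Actg1 guide libraries and 18, 16 and 21 in the GFP guide libraries, which overlapped (log2 fold change -0.98, limma adjusted p = 0.0394). Its call ended when GFP guide replicate 1 or 3 was left out (-0.94 and -0.84, limma adjusted p = 0.0638 and 0.352) and when Actg1 guide replicate 2 or 3 was (-0.61 and -0.98, limma adjusted p = 0.185 and 0.0995). At the far end of Cald1, a region of Agbl3, the gene of a tubulin-directed carboxypeptidase, had 31, 31 and 32 in the Actg1 guide libraries and 15, 7 and 3 in the GFP guide libraries (log2 fold change 2.22, limma adjusted p = 1.4e-06). Without GFP guide replicate 3 it was 1.43 (limma adjusted p = 0.00871), and over the other left-out libraries 2.01 to 2.51. Past the end of Tpm1, an unnamed region (67019908 to 67020155) had 16, 27 and 31 in the Actg1 guide libraries and 7, 5 and 9 in the GFP guide libraries (log2 fold change 1.57, limma adjusted p = 0.000242). At Agbl3 and past Tpm1 alike, every Actg1 guide library was higher, and the signal was weak. The rises also include the Tmem259 regions upstream of Cnn2, whose calls held under all alternatives. Calls near Tpm3 ended at 90064135 without Actg1 guide replicate 2 (0.75, limma adjusted p = 0.0664). At 90110708 they ended without Actg1 guide replicate 1 or 3 (0.91 and 0.66, limma adjusted p = 0.0845 and 0.149). The call there also ended without GFP guide replicate 1 (0.81, limma adjusted p = 0.058). Without GFP guide replicate 3 these regions were at 0.57 and 0.86, against 0.82 and 0.92 in the main fit.

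Promoters of other contractile genes changed in both directions. Of 37 listed partners of these proteins, such as myosins, actinins and filamins, 28 had promoter regions, 32 in all, of which 3 were higher and 5 lower, with a median log2 fold change of 0.02. Of 17 listed regulators of such genes, such as SRF, TEAD and KLF factors, 13 had promoter regions, 15 in all, of which 2 were higher and 2 lower, with a median of -0.04. The 2 shares, 25% and 26.7%, stand beside 32.7% of all promoter regions, and the difference was not tested. The largest falls were at Myl12b, a myosin regulatory light chain, with 196, 189 and 179 in Actg1 guide libraries and 313, 283 and 299 in GFP guide libraries (log2 fold change -0.67, limma adjusted p = 6.19e-08), at Lmod1, the smooth muscle leiomodin (-0.54, limma adjusted p = 0.0287), and at Ppp1r12a, the myosin phosphatase targeting subunit (-0.24, limma adjusted p = 0.000911). The largest rises were at Klf4, a transcription factor that represses smooth muscle genes (0.66, limma adjusted p = 0.0305), Flnc, filamin C (0.47, limma adjusted p = 0.0126), and Tmod3, a tropomodulin that caps the tropomyosin-coated filament end. The Klf4 region was weak and lay 924 bp from the TSS, while the stronger Klf4 region at 314 bp was not called (-0.12, limma adjusted p = 0.127). The Flnc region lay 777 bp from the TSS, while the Flnc region at 23 bp was not called (0.14, limma adjusted p = 0.322). Tmod3 had 394, 364 and 328 with the Actg1 guide and 277, 310 and 287 with the GFP guide (log2 fold change 0.31, limma adjusted p = 0.00113). Of these 6 calls, that of Myl12b held without GFP guide replicate 3, and those of Lmod1, Ppp1r12a, Klf4, Flnc and Tmod3 ended (log2 fold changes -0.51, -0.22, 0.80, 0.43 and 0.30, limma adjusted p = 0.243, 0.0683, 0.0920, 0.182 and 0.0799). The Klf4 call also ended when GFP guide replicate 2, Actg1 guide replicate 1 or Actg1 guide replicate 2 was left out (limma adjusted p = 0.0935, 0.0699 and 0.125), and that of Flnc without Actg1 guide replicate 2 or 3 (limma adjusted p = 0.105 and 0.0618). The Lmod1 call also ended when GFP guide replicate 2, Actg1 guide replicate 1 or Actg1 guide replicate 3 was left out (limma adjusted p = 0.156, 0.165 and 0.0552). Tmod3 and Myl12b also had called regions beyond 1 kb of the TSS, opposite in direction to their promoter regions. Tmod3 fell at 1783 bp (79, 81 and 67 with the Actg1 guide, 110, 121 and 121 with the GFP guide). Its log2 fold change there was -0.64 (limma adjusted p = 0.000184). Myl12b rose at 2787 bp, where the groups overlapped (0.35, limma adjusted p = 0.0295). It was not called at 2824 bp (0.03, limma adjusted p = 0.852).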

How the data were processed

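The authors deposited a table with 1 value per region and library, a score that is read here as a read count scaled between libraries and rounded to whole numbers, and called signal. This reading rests on the values: small whole numbers are skipped or doubled at regular steps, which gave the signal that 1 read is worth (0.807 to 1.35) and the estimated reads. Distances to the TSS and the fraction of a region inside its gene are as deposited by the authors. The submitters' processing notes name mm10 as the build and list DESeq2 1.36.0, DESeq, featureCounts, Picard 3.0.0, STAR 2.7.10a and Trimmomatic 0.39 without saying what each did. For peak calling, any Tn5 offset, the scaling formula and the annotation version, details were not given in the sources used here.

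A region entered the fit if 3 or more of the 6 libraries had a signal of 10 or more. The fit was made with limma 3.58.1 (R 4.3.3), with a mean-variance trend, on log2(signal + 1). The scale understates changes of weak regions. Chi-square of estimated reads was 1.0 per region for GFP guide replicates 1 and 2 (chi-square p = 0.223). It was 1.03 to 1.12 for the other within-group pairs (chi-square p from 7.31e-09 down to 8.96e-96). All pairs thus lay near counting error, and the averaged pair was set apart from the next by a small margin (1.0 against 1.03). All member regions are reported, and of the listed genes the 3 largest called rises and falls at promoters. The members, lists and the averaging of libraries were chosen with earlier results of these data known. Region lengths count both end positions. Alternatives were another pseudocount, other filters, loess scaling, 6 separate libraries with and without a replicate block, each library left out, and voom on estimated reads.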

Additional observations from a re-analysis of the deposited data

How the results depend on the processing

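Among the 17 regions, 6 to 8 were called under every alternative except the one without GFP guide replicate 3, and leaving out 1 library gave 3 to 7. For promoter regions of the members the range over left-out libraries was 1 to 4, for the unnamed regions inside the genes 3 to 8, for the listed contractile and regulator genes 8 to 23, and over all regions 12793 to 24706. With a promoter window of 5 kb, 6 of 16 member regions were called (1 higher and 5 lower). With the replicate block, 8 of the 17 member regions were called, as with 6 separate libraries without it (8). Between these fits the count of listed contractile and regulator regions was 29 with the block and 26 without it, and over all regions 28725 and 28176. Treating the libraries as 6, with or without the block, also called the Cald1 promoter and unnamed regions inside Cald1 (34721681), Tpm4 (72147284) and Tpm1 (67025082), where the block gave -0.27, 0.55 and 0.53 (limma adjusted p = 0.0117, 0.0351 and 0.0436). The replicate numbers mark no stated pairing: deviations of same-numbered libraries correlated at 0.025, 0.014 and 0.016, each the highest for its number, which is a hint from the data only.

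Signs turned at 7 regions, none of them called. On the log2 scale, the Tagln2 region at 1915 bp was at 0.0048 in voom and ranged over -0.07 to 0.01 when 1 library was left out. The upstream Cnn1 region was at -0.02 with 6 separate libraries, with or without the replicate block, and ranged over -0.08 to 0.10 when 1 library was left out. For regions without a member name the ranges were -0.04 to 0.13 (Cald1, 34610084), -0.06 to 0.03 (Agbl3, 34780240), -0.25 to 0.03 (Tpm4, 72145613), -0.03 to 0.06 (Tpm4, 72146640) and -0.01 to 0.20 (Tpm1, 67036764). Agbl3 was also at 0.02 after loess scaling and 0.03 in voom, and the Tpm4 region at 72146640 was at -0.00079 after loess scaling. The causes were not tested. Of the 17 regions the weak Cnn1 promoter had the widest 95% interval, 0.01 to 1.10, at a mean signal of 23.8.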
